A study of Saccharomyces cerevisiae with 61 samples.

Results

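The experiment described here is the treatment of rad53Δ budding yeast with methyl methanesulfonate (MMS), set against untreated rad53Δ cells of the same time. It was taken from the array labels, as every rad53Δ array that carries an MMS or an untreated extract. That rule gave 12 of the 61 arrays of the series and 11 of its 56 RNA extracts. The groups were rad53Δ cells in 0.033% MMS at 30 and 75 min, with 2 replicates a time, and untreated rad53Δ cells at 30 and 75 min, with 2 replicates a time, plus 1 untreated 0 min extract in replicate 1. Extracts of rad53Δ cells in 0.2 M hydroxyurea (HU) at 30 and 75 min, 2 a time, took part in the fit and in a comparison with MMS, which brought it to 15 arrays and 13 extracts. Wild-type cells in MMS and untreated wild-type cells of these times, 2 replicates each, served for a comparison between strains. All of these strains are BY4741, an a-type laboratory strain, and all cultures were arrested with mating pheromone and then released, a step that lets cells pass through the cycle together. The labels name rad53Δ and no other allele for the mutant, and do not say whether replicates were separate cultures, so p-values measure only the spread between these samples.

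Rad53 is the effector kinase of the DNA replication and damage checkpoint. It is activated by Mec1 at stalled forks and damaged sites, it acts through the kinase Dun1 to inactivate the repressor Crt1 (Rfx1) and so to induce ribonucleotide reductase genes, and it keeps targets of the G1/S factor MBF active when replication is blocked. MMS methylates DNA bases and stalls forks, and it also alkylates proteins and thiols, which calls on regulators outside the checkpoint such as Yap1, the activator of thiol redox genes, and Rpn4, the activator of proteasome genes. Loss of RAD53 is normally lethal unless nucleotide supply is raised, for example by loss of the reductase inhibitor Sml1. Comparing MMS with no treatment in rad53Δ cells asks which parts of the response to MMS take place without this kinase.

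Every rad53Δ array compares rad53Δ RNA with rad53Δ RNA, so the level of the deleted gene cannot be read. The ratios of RAD53 (YPL153C) had an SD of 0.101 over the rad53Δ arrays and of 1.07 over the wild-type arrays, while the median SD of all features on the rad53Δ arrays was 0.325. For SML1 (YML058W) these SDs were 0.148 over the rad53Δ arrays and 0.590 over the wild-type arrays. Medians of single arrays ran between -0.0258 and 0.0180 in log ratio, a scale without a stated base that was read as log2. No intensities are given, so the signal behind a ratio is unknown, and the number of arrays limits the precision. In bulk RNA, more cells of a cycle stage and more transcript per cell cannot be told apart. Of 10 genes of the other mating type and of sporulation, markers of other cells, none passed the test in either direction in MMS, and their mean effects lay between -0.19 and 0.09.

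All values below are log2 ratios of MMS over untreated cells of the same time unless stated otherwise, and a gene is said to rise or fall where limma's moderated test gave an adjusted p under 0.05 over 6249 features. As a mean of 30 and 75 min, 2396 features passed (38.3%), 1297 higher in MMS (20.8%) and 1099 lower (17.6%), of which 58 changed by more than 2-fold (35 higher and 23 lower). At 30 min 220 features passed (3.52%), 141 higher (2.26%) and 79 lower (1.26%), and all 15 beyond 2-fold were higher. At 75 min 2645 passed (42.3%), 1442 higher (23.1%) and 1203 lower (19.3%), with 198 beyond 2-fold. Most calls are of small changes, since the median SE was 0.06 for the mean. The 2 replicates correlated at r = 0.64 at 30 min and r = 0.90 at 75 min over features, which are not independent of one another. With the spread estimated from the extracts of all strains, 836 features passed for the mean, 25 at 30 min and 1078 at 75 min, and the share of calls higher in MMS was then 64.2% for the mean and 100% at 30 min. Of 41 named genes that passed at 30 min it kept the calls of 12, SSU1, YHB1, SRX1, YNR064C, FLR1, GPX2, ATR1, GTT2, YNL134C, UBI4, TSA1 and YAP1. With arrays scaled to equal spread 440 features passed at 30 min, 51.1% of them higher, against 64.1% as reported. Without replicate 1 or without replicate 2 the mean gave 203 and 168 features, 79.8% and 76.2% of them higher in MMS, against 54.1% with both. Of 105 named genes that passed in the mean, 36 did so with the wider spread and without either replicate, among them SSU1, YHB1, SRX1, UBI4, DDI2, FLR1, GPX2, ATR1, GTT2, TRX2, TRR1, TSA1, YAP1, RPT2, RPT3, PHO3, PHO12, OLE1, ERG5, ANB1, EGT2, PCL9, DSE3 and MRH1.

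**Figure D1:**
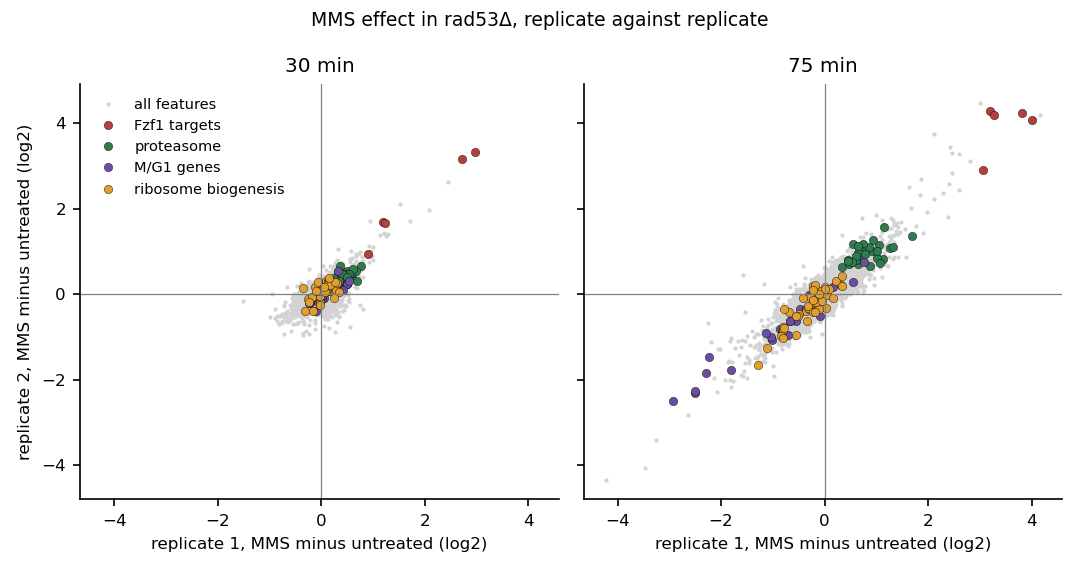
MMS minus untreated (log2) in rad53Δ replicate 1 (horizontal) and replicate 2 (vertical), at 30 min (left) and 75 min (right). Grey points are the 6249 features, coloured points the members of 4 gene groups. The 5 Fzf1 targets lie at the upper right at both times, while M/G1 genes spread to the lower left at 75 min.

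The largest rises were those of SSU1, YHB1 and SRX1, each more than 10-fold as a mean of both times. SSU1 (YPL092W), the plasma membrane sulfite pump, stood at 2.97 and 3.34 in replicates 1 and 2 at 30 min and at 3.82 and 4.23 at 75 min. YHB1 (YGR234W), the flavohaemoglobin that removes nitric oxide, stood at 2.72 and 3.17 at 30 min and at 4.01 and 4.08 at 75 min. SRX1 (YKL086W), the sulfiredoxin that repairs oxidised peroxiredoxin, stood at 2.46 and 2.61 at 30 min and at 4.17 and 4.18 at 75 min. Every MMS extract was thus more than 4-fold above the untreated extract of its replicate and time for each of these genes. The mean rises were 12.1-fold for SSU1 (3.59 ± 0.10, SE, adjusted p = 3.0e-08), 11.3-fold for YHB1 (3.50 ± 0.10) and 10.2-fold for SRX1 (3.36 ± 0.06, adjusted p = 1.9e-09). On the 2 replicate 2 arrays that carried MMS against untreated RNA directly, SSU1 had ratios of 3.17 at 30 min and 4.15 at 75 min.

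SSU1 and YHB1 belong to a group of 5 genes linked to the zinc finger activator Fzf1, and all 5 rose at both times, with a median of 1.45 at 30 min and 3.74 at 75 min. All 5 calls at 75 min stood with the spread of all strains and without either replicate, while at 30 min 3 stood with that spread, not DDI2 and DDI3, and 2 without either replicate. DDI2 (YNL335W), a cyanamide hydratase gene, had 1.20 and 1.70 at 30 min and 3.19 and 4.29 at 75 min. DDI3 (YFL061W) is a near-identical copy of DDI2, and its values of 1.23 and 1.66 at 30 min and 3.28 and 4.19 at 75 min may come from cross-hybridisation. YNR064C, an epoxide hydrolase gene, had 0.90 and 0.94 at 30 min and 3.06 and 2.90 at 75 min. In replicate 1, the untreated cells stayed near their 0 min level for this group (medians -0.04 at 30 min and -0.08 at 75 min), and the MMS cells had medians of 1.16 and 3.11.

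**Figure D2:**
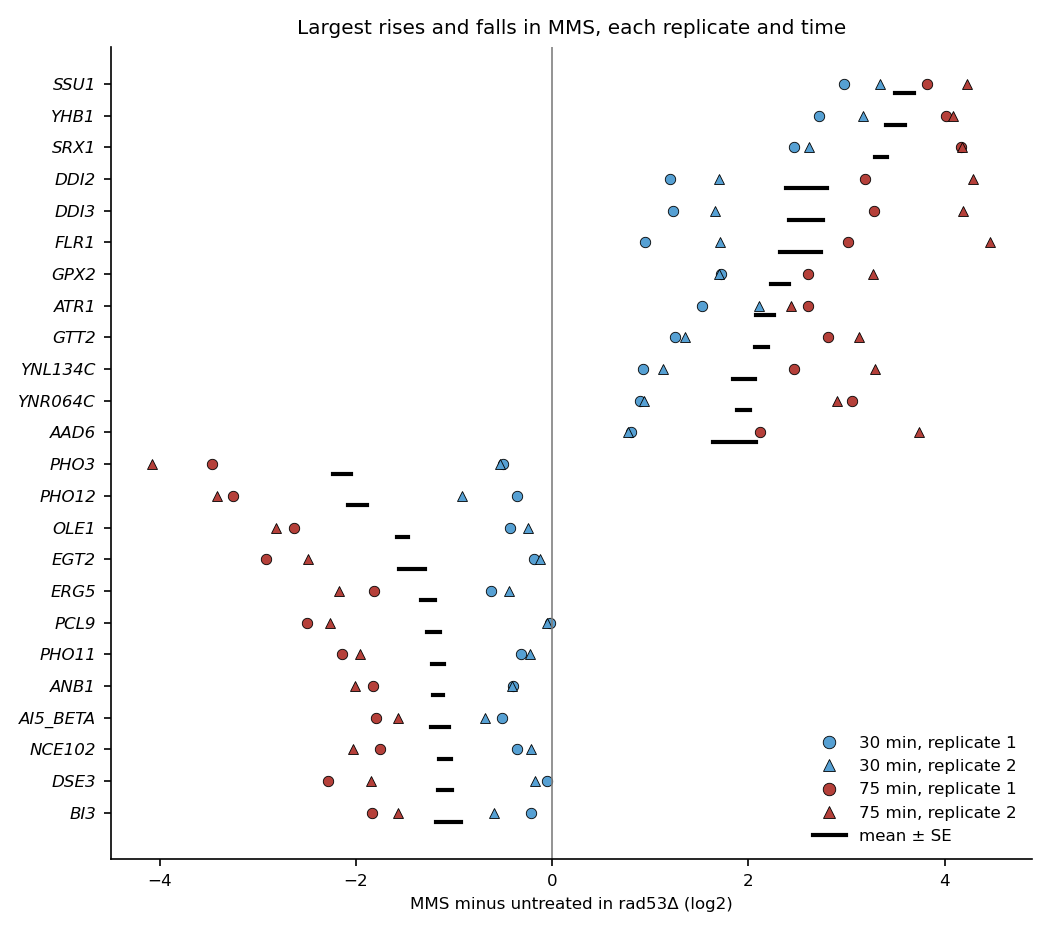
MMS minus untreated (log2) for the 12 largest rises and the 12 largest falls in rad53Δ, with 1 point for each replicate and time and a bar for the mean ± SE. All points of the rises lie above 0.7, and those of the falls lie within 1 of 0 at 30 min and below -1.5 at 75 min.

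Thiol redox and detoxification genes, many of them driven by Yap1, rose as a group. Of 30 measured members, 25 rose as a mean of both times and 0 fell, with a median of 0.89 against a median near 0 over all features. Of all features 20.8% rose and 17.6% fell. Without 1 or the other replicate 18 and 16 passed. YAP1 (YML007W) itself rose by 1.01 ± 0.05, from values of 0.64 and 0.71 at 30 min and 1.31 and 1.36 at 75 min. FLR1 (YBR008C), a drug exporter of the plasma membrane, had 0.95 and 1.71 at 30 min and 3.01 and 4.46 at 75 min. GPX2 (YBR244W), a glutathione peroxidase, rose by 2.33 ± 0.09 and GTT2 (YLL060C), a glutathione transferase, by 2.14 ± 0.06. The multidrug exporter gene ATR1 (YML116W) had 1.52 and 2.10 at 30 min and 2.61 and 2.43 at 75 min, so most of its rise was present at 30 min. Thioredoxin TRX2 (YGR209C), thioredoxin reductase TRR1 (YDR353W) and peroxiredoxin TSA1 (YML028W) rose by 1.65 ± 0.06, 1.34 ± 0.08 and 1.30 ± 0.08. Members that did not pass were the catalase gene CTT1 at -0.03, the pentose phosphate genes TAL1 at 0.07 and GND1 at 0.00, MXR1 at 0.06 and AAD14 at -0.10. AAD6 (YFL056C), an aryl alcohol dehydrogenase gene, had 0.80 and 0.77 at 30 min, where it did not pass, and 2.12 and 3.74 at 75 min, so its replicates differed there. Outside the list, YNL134C, an oxidoreductase gene, rose by 1.95 ± 0.11.

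All 32 proteasome genes rose as a mean of both times and again at 75 min, and 15 of them rose at 30 min, when 2.26% of all features did. The median rise was 0.42 at 30 min and 0.88 at 75 min, and single members lay between 0.34 and 1.12 in the mean. The ATPase genes of the regulatory particle RPT3 (YDR394W) and RPT2 (YDL007W) led, at 1.12 ± 0.09 and 0.95 ± 0.07. PRE8 (YML092C), of the core particle, and RPN11 (YFR004W), the lid's deubiquitinase, rose by 0.89 ± 0.06 and 0.81 ± 0.06. The group was called nearly whole with the wider spread of all strains, 31 of 32, and 24 and 16 passed without replicate 1 and without replicate 2, but at 30 min none of the 15 calls stood under any of these settings. RPN4 (YDL020C), the activator gene, had a smaller rise of 0.48 ± 0.08, with 0.18 and 0.45 at 30 min and 0.40 and 0.88 at 75 min.

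The polyubiquitin gene UBI4 (YLL039C) had 0.73 and 0.95 at 30 min and 1.97 and 1.93 at 75 min, a rise of 1.39 ± 0.07 (adjusted p = 1.6e-06). Both gene groups below are to be read beside all features, of which 20.8% rose and 17.6% fell in the mean. In the ubiquitin system 14 of 15 members rose, with a median of 0.54, and UBA1, the activating enzyme gene, stood at -0.02. Without replicate 1 or replicate 2 this count was 8 and 3. DDI1 (YER143W), a shuttle protein and protease gene, rose by 0.99 ± 0.08, UFD1 (YGR048W), a Cdc48 partner, by 0.73 ± 0.07 and the proteasome assembly factor UMP1 (YBR173C) by 0.71 ± 0.05. Of 25 chaperones 17 rose and 0 fell, with a median of 0.35, and 11 passed with the spread of all strains and 2 and 4 without replicate 1 and replicate 2. HSP42 (YDR171W), a small heat shock protein, rose by 1.05 ± 0.06, KAR2 (YJL034W), the chaperone of the endoplasmic reticulum, by 0.89 ± 0.11 and BTN2 (YGR142W) by 0.86 ± 0.06, whereas HSP26 stood at -0.01 and SSA3 at 0.07. The disaggregase gene HSP104 (YLL026W) rose by 0.53 ± 0.09.

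Genes that Crt1 holds down until the checkpoint kinases act did not rise. HUG1 (YML058W-A), an inhibitor of ribonucleotide reductase, had -0.45 and -0.41 at 30 min and -0.80 and -0.95 at 75 min, so it lay below untreated cells in every pair. Its mean was -0.65 ± 0.10 (adjusted p = 0.001). The reductase subunit gene RNR2 (YJL026W) had -0.27 and -0.19 at 30 min and -0.36 and -0.76 at 75 min (mean -0.40 ± 0.08), and RNR4 (YGR180C) had -0.04 and -0.16 at 30 min and -0.69 and -0.57 at 75 min (mean -0.37 ± 0.08). These 3 mean falls passed the test but no longer did with the spread of all strains or without either replicate. RNR3 (YIL066C), usually the most inducible subunit gene, had -0.24 and -0.19 at 30 min and -0.01 at 75 min in both replicates, with a mean of -0.11 ± 0.07 (adjusted p = 0.22). RNR1 (YER070W), the large subunit gene and an MBF target, differed between replicates, with -1.52 and -1.16 in replicate 1 at 30 and 75 min and -0.15 and 0.23 in replicate 2 (mean -0.65 ± 0.29, adjusted p = 0.1). Of the list's 8 genes, 3 fell and 1, RFX1 (which encodes Crt1), rose by 0.19, a call that ended under the same settings. Of all features 20.8% rose and 17.6% fell in the mean. The list, called the Crt1 group below, joins Crt1-held genes with other genes of the reductase, such as RNR1 and SML1.

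Repair genes outside this group showed small rises, in a comparison where 20.8% of all features rose and 17.6% fell. Of 17 measured damage-inducible repair and checkpoint genes 9 rose and 1 fell, with a median of 0.21, and 4 rises passed with the spread of all strains and 2 without either replicate. DDR48 (YMR173W) rose by 0.99 ± 0.07 and DDI1 by as much. MAG1 (YER142C), the glycosylase that removes methylated bases and shares its promoter region with DDI1, had 0.13 and 0.31 at 30 min and 0.43 and 0.65 at 75 min (mean 0.38 ± 0.06). The repair translocase gene RAD54 (YGL163C) rose by 0.21 ± 0.07, a call that ended with the spread of all strains, and the nucleotide excision repair gene RAD23 (YEL037C) by 0.44 ± 0.08. DUN1 (YDL101C) stood at 0.08 ± 0.06 (adjusted p = 0.33) and PLM2 (YDR501W), a transcription factor gene, at 0.01 ± 0.06 (adjusted p = 0.91). The haspin kinase gene ALK1 (YGL021W), also a member of the CLB2 cluster, was the member that fell, at -0.39 ± 0.07, and that call too ended with the spread of all strains.

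General stress genes, the programme of Msn2 and Msn4, had no common direction. Of 28 members 10 rose, 4 fell and 14 did not pass, with a median of 0.09, and 3 rises and 1 fall passed with the spread of all strains and 0 without either replicate. Over all features 20.8% rose and 17.6% fell in the mean, so falls were no more frequent in this list. Among those that rose were the glucokinase gene GLK1 (YCL040W) at 0.74 ± 0.05, TFS1 (YLR178C), a carboxypeptidase inhibitor gene, at 0.63 ± 0.06, and the trehalase gene NTH1 (YDR001C) at 0.62 ± 0.06. Those that fell were YGP1, DDR2, the membrane protein gene HSP12 at -0.46 and the glycogen phosphorylase gene GPH1 at -0.15. DDR2 (YOL052C-A) had -0.45 and -0.68 at 30 min and -0.46 and -0.59 at 75 min (mean -0.55 ± 0.06), a fall whose call ended with the spread of all strains. YGP1 (YNL160W), a secreted glycoprotein gene, had 0.23 and 0.12 at 30 min and -1.92 and -2.00 at 75 min. The phosphoglucomutase gene PGM2 (YMR105C) and RTC3 (YHR087W) stood at -0.02 ± 0.06 and 0.10 ± 0.07 (adjusted p = 0.85 and 0.28). MSN4 (YKL062W) stood at 0.05 ± 0.05 (adjusted p = 0.53).

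Cell cycle genes moved at 75 min more than at 30 min, and their own course in the untreated cells has to be read beside each effect. In replicate 1, the replicate with a 0 min extract, targets of the G1/S factor MBF had medians of 1.11 above 0 min at 30 min and 0.39 at 75 min in MMS, against 1.29 at 30 min and 0.14 at 75 min untreated. Targets of its sister factor SBF had 1.13 and 0.43 in MMS, against 1.33 and 0.11 untreated. These levels come from 1 replicate and carry no test. In MMS both medians were thus slightly lower at 30 min and slightly higher at 75 min than in untreated cells. The members' own differences at 30 min had medians of -0.04 and -0.03 in replicates 1 and 2 for MBF targets. For SBF targets these were -0.15 and -0.24.

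Of 39 measured MBF targets 0 passed at 30 min, and 21 rose and 1, the replication licensing gene CDC6, fell at 75 min, with a median of 0.29. Over all features 23.1% rose and 19.3% fell at 75 min. The sliding clamp gene POL30 (YBR088C) had 0.34 and 0.61 at 30 min and 1.34 and 1.38 at 75 min. PDS5 (YMR076C), a cohesin regulator gene, had -0.25 and -0.19 at 30 min and 1.27 and 1.37 at 75 min. The thymidylate synthase gene CDC21 (YOR074C) had 0.01 and -0.05 at 30 min and 0.73 and 0.90 at 75 min, while the S-phase cyclin gene CLB6 (YGR109C) had 0.38 and 0.44 at 30 min and 0.52 and 1.01 at 75 min. With the spread of all strains 4 of the 21 rises at 75 min passed, not those of CDC21 and CLB6, and without either replicate 0 did, while 1 fall passed in each case. TOS4 (YLR183C) stood at -0.09 ± 0.07, SWI4 (YER111C) at -0.15 ± 0.06 and NRM1 (YNR009W), the corepressor of MBF, at -0.11 ± 0.14, none of which passed.

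Among 29 SBF targets 5 fell and 0 rose at 30 min, and 13 rose and 3 fell at 75 min, of which 3 rises and 0 falls passed with the spread of all strains and none without either replicate. Of all features 1.26% fell at 30 min, and 23.1% rose and 19.3% fell at 75 min. The cyclin gene PCL1 (YNL289W) had -0.02 and 0.24 at 30 min and 1.32 and 1.75 at 75 min, and the cell wall gene SVS1 (YPL163C) had -0.37 and -0.55 at 30 min and 1.35 and 1.66 at 75 min. PCL1's call at 75 min ended with that spread and SVS1's did not. The G1 cyclin genes CLN1 (YMR199W) and CLN2 (YPL256C) were at 0.29 and 0.32 at 75 min, calls that it ended as well. Core histone genes were below untreated cells at 30 min and above them at 75 min. Of 10 histone genes 4 fell at 30 min (median -0.50) and 8 rose at 75 min (median 0.43). HTA1 (YDR225W) had -0.98 and -0.54 at 30 min and 0.34 and 0.87 at 75 min, and HHT2 (YNL031C) had -0.41 and -0.31 at 30 min and 0.74 and 0.71 at 75 min. The histone calls at 30 min ended with the spread of all strains, which left 1 of the 8 at 75 min, and none of them stood without either replicate.

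**Figure D3:**
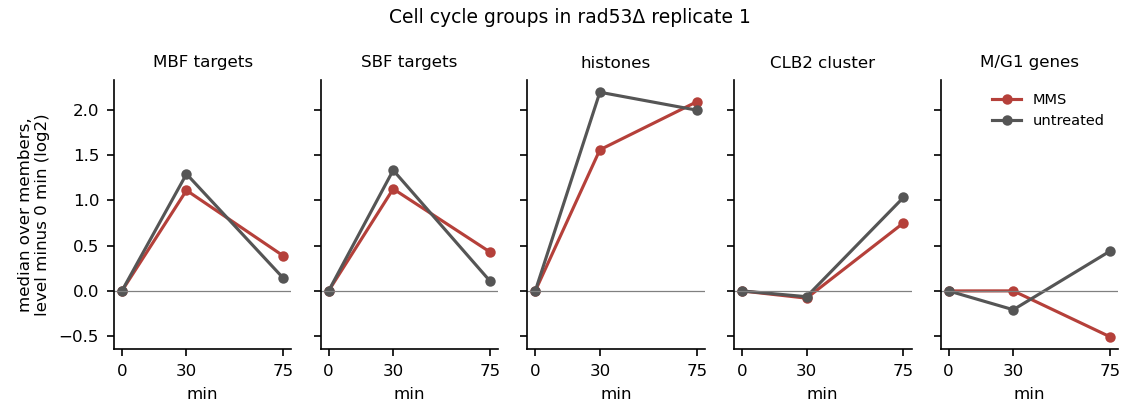
Median level (log2) over the members of 5 cell cycle groups in rad53Δ replicate 1, relative to the untreated 0 min extract, at 0, 30 and 75 min in MMS (red) and untreated (grey) cells. The MMS line of histone genes lies at 1.56 at 30 min against 2.19 untreated, and M/G1 genes end at -0.51 in MMS against 0.44 untreated.

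Genes of later cycle stages were lower in MMS at 75 min, when 19.3% of all features fell and 23.1% rose. In the CLB2 cluster, which is transcribed from G2 to mitosis, 16 of 19 measured members fell at 75 min and 0 rose, with a median of -0.52, and 7 passed with the spread of all strains, 1 without replicate 1 and 0 without replicate 2. In replicate 1 the cluster stood 0.75 above its 0 min level in MMS and 1.03 above it untreated, so both stood above 0 min. The mitotic cyclin gene CLB1 (YGR108W) had -0.51 and -0.26 at 30 min and -1.36 and -1.24 at 75 min, CLB2 (YPR119W) had -0.11 and -0.10 at 30 min and -0.74 and -1.02 at 75 min, and the septum chitin synthase gene CHS2 (YBR038W) had -0.14 and -0.02 at 30 min and -1.18 and -1.42 at 75 min. SWI5 (YDR146C), which encodes an activator of M/G1 genes, had -0.40 and -0.54 at 75 min. The calls at 75 min of CLB1, CLB2 and SWI5 ended with the spread of all strains, that of CHS2 did not.

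Genes of mitotic exit and early G1 showed larger falls at 75 min, when 19.3% of all features fell and 23.1% rose. At 75 min 19 of 24 fell and 2, the cell wall gene PIR3 and the chitinase gene CTS1, rose, with a median of -0.82, and 14 falls but neither rise passed with the spread of all strains, and 7 falls without either replicate. The cell separation gene EGT2 (YNL327W) had -0.19 and -0.12 at 30 min and -2.92 and -2.49 at 75 min. The cyclin gene PCL9 (YDL179W) had -0.03 and -0.05 at 30 min and -2.50 and -2.26 at 75 min, and the daughter-cell genes DSE3 (YOR264W) and DSE4 (YNR067C) had -2.28 and -1.84, and -2.23 and -1.47, at 75 min. The Cdk inhibitor gene SIC1 (YLR079W) had -0.01 and 0.02 at 30 min and -1.01 and -1.07 at 75 min. The values at 75 min lay below those at 30 min in both replicates for each of these genes. Among pheromone genes, FAR1 (YJL157C), the Cdk inhibitor of mating arrest, had -1.27 and -1.18 at 75 min. Of the 27 pheromone response genes 5 rose and 5 fell in the mean, where 20.8% of all features rose and 17.6% fell, and 1 and 1 passed with the spread of all strains and none without either replicate. In replicate 1 they stood far below 0 min in MMS (medians -2.07 at 30 min and -2.84 at 75 min) as in untreated cells (-2.28 and -2.62).

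The largest falls of the mean comparison were in acid phosphatase genes. PHO3 (YBR092C) had -0.50 and -0.53 at 30 min and -3.46 and -4.07 at 75 min, a 4.41-fold fall in the mean (-2.14 ± 0.09). PHO12 (YHR215W) had -0.36 and -0.92 at 30 min and -3.25 and -3.41 at 75 min, and PHO11 (YAR071W), its near-identical copy, had -0.32 and -0.23 at 30 min and -2.14 and -1.96 at 75 min, so part of a value may come from the other gene. PHO84 (YML123C), the phosphate transporter gene, fell by 0.91 on the log2 scale, but replicates differed at 75 min (-2.26 and -0.67). Over all features 20.8% rose and 17.6% fell in the mean. Of 15 genes of phosphate supply 6 fell and 0 rose, 4 of the falls passed with the spread of all strains and 3 without either replicate, and PHO81, PHO89, VTC1, VTC3, VTC4 and SPL2 did not pass.

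OLE1 (YGL055W), the fatty acid desaturase gene, had -0.43 and -0.24 at 30 min and -2.63 and -2.81 at 75 min, and ERG5 (YMR015C), of ergosterol synthesis, had -0.62 and -0.44 at 30 min and -1.81 and -2.17 at 75 min. ANB1 (YJR047C), the form of translation factor eIF5A made at low oxygen, fell by 1.16 ± 0.05 on the log2 scale. NCE102 (YPR149W), a plasma membrane protein of eisosomes, had -0.36 and -0.22 at 30 min and -1.76 and -2.03 at 75 min. Transcripts of the mitochondrial genome were lower at 75 min, where 6 of 8 protein genes fell, with a median of -1.31. Of all features 19.3% fell at that time. Subunit genes of cytochrome oxidase stood at -1.54 and -1.62 (COX1, Q0045) and at -1.74 and -1.26 (COX3, Q0275), and the intron-encoded AI5_BETA (Q0075) and BI3 (Q0115), which share transcripts with COX1 and COB, at -1.79 and -1.57, and at -1.84 and -1.57. With the spread of all strains 4 of the 6 falls passed, without replicate 1 none and without replicate 2 1.

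Amino acid synthesis genes were mixed, with 22 of 45 higher and 9 lower in the mean and a median of 0.15, and with the spread of all strains 13 rises and 2 falls passed, without replicate 1 5 and 1, and without replicate 2 3 and 0. LYS20 (YDL182W), the homocitrate synthase gene of lysine synthesis, had 0.58 and 1.01 at 30 min and 1.49 and 1.68 at 75 min, LYS1 (YIR034C) rose by 0.97 ± 0.07, and the arginine genes ARG1 (YOL058W) and ARG4 (YHR018C) by 0.78 ± 0.07 and 0.77 ± 0.08. The share of falls was near that over all features, of which 20.8% rose and 17.6% fell in the mean. Those that fell included the glutamine synthetase gene GLN1 at -0.59 and the glutamate dehydrogenase gene GDH1 at -0.58. GCN4 (YEL009C), their activator gene, stood at 0.07 ± 0.07 (adjusted p = 0.51), a transcript value that does not report its translation. In sulfur metabolism 3 of 21 rose and 5 fell, where 20.8% of all features rose and 17.6% fell, and 1 and 2 passed with the spread of all strains and at most 1 fall without a replicate. Those that fell included the S-adenosylmethionine synthetase genes SAM1 (YLR180W) at -0.69 ± 0.06 and SAM2 (YDR502C) at -0.52 ± 0.07, which are close paralogs, and the methionine synthase gene MET6 (YER091C) at -0.55 ± 0.08, whose call ended with that spread.

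Genes for making ribosomes had small effects. Of 55 biogenesis factors 5 rose and 14 fell in the mean, with a median of -0.05, where 20.8% of all features rose and 17.6% fell. At 75 min 4 rose and 23 fell, with a median of -0.19, where these shares were 23.1% and 19.3%. With the spread of all strains no rise and 6 falls in the mean and 12 at 75 min passed, and without replicate 1 or replicate 2 no rise and 2 or 0 falls in the mean. DBP2 (YNL112W), an RNA helicase gene, had -1.28 and -1.65 at 75 min, and NSR1 (YGR159C), of the nucleolus, had -1.12 and -1.26. Of 129 ribosomal protein genes 61 fell and 1 rose in the mean, with a median of -0.19 and no member beyond -0.63, and 26 falls passed with the spread of all strains, 1 without replicate 1 and 6 without replicate 2. Many of these come as near-identical pairs whose probes may cross-hybridise.

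The effect of MMS differed between 75 and 30 min for 814 features (13%), with 454 higher at 75 min (7.27%) and 360 lower (5.76%), and for 774 of them it was larger in size at 75 min. With the spread of all strains 79 passed, and without replicate 1 or replicate 2 9 and 8. Among the features that passed with 1 sign in all values, the largest positive difference was that of FLR1, 2.41 ± 0.42. The effect on MRH1 (YDR033W), a plasma membrane protein gene, dropped by 4.70 on the log2 scale. MRH1 had 0.39 and 0.43 at 30 min and -4.23 and -4.35 at 75 min, so MMS cells were above untreated cells at 30 min and below them at 75 min. PIR1 (YKL164C), a cell wall gene of the M/G1 list, had 0.49 and 0.24 at 30 min and -2.51 and -2.30 at 75 min. Features called at both times numbered 173 with the same sign and 12 with opposite signs. Up at 30 min and down at 75 min were MRH1, the mitotic exit kinase gene DBF2, the replicative helicase gene MCM5, the spindle gene ASE1 and YFL051C. Down at 30 min and up at 75 min were the histone genes HTA1, HTA2, HHF1 and HHT2, the SBF targets TOS6 and MNN1 and 1 probe without a gene symbol. These genes were picked out after their values were seen. With the spread of all strains no fall at 30 min passed, since all 25 features that then did were higher in MMS, and the 30 min call of MRH1 ended too.

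MMS and HU, an inhibitor of ribonucleotide reductase, share their untreated cells in these loops, so they were set against each other directly. As a mean of 30 and 75 min 2779 features differed (44.5%), 1394 higher in MMS (22.3%) and 1385 lower in MMS than in HU (22.2%), 41 of them by more than 2-fold. With the spread of all strains 1221 passed, and without replicate 1 or replicate 2 319 and 244. SSU1 was 3.33 ± 0.10 higher in MMS than in HU, with 2.76 and 3.36 at 30 min and 3.54 and 3.65 at 75 min, and YHB1 was 3.06 ± 0.10 and SRX1 2.62 ± 0.06 higher. All 5 Fzf1 genes, all 32 proteasome genes, with a median difference of 0.74, and 22 of 30 redox genes were higher in MMS. Another 4 of the redox genes were lower in MMS than in HU. UBI4 was higher by 1.15 ± 0.07.

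Lower in MMS than in HU were YHK8 (YHR048W), a presumed drug exporter gene, by 1.63 ± 0.07 on the log2 scale, ANB1 by 1.49 ± 0.05 and the hexose transporter gene HXT6 (YDR343C) by 1.36 ± 0.06, with -0.25 and -0.20 at 30 min and -2.62 and -2.36 at 75 min. HXT7 (YDR342C), a near-identical copy, had -0.50 and -0.17 at 30 min and -2.65 and -2.26 at 75 min. YHK8 stood at -0.07 ± 0.07 against untreated cells in MMS, and HXT6 at -0.16 ± 0.06, neither of which passed. In the Crt1 group 5 of 8 genes were lower in MMS than in HU and 0 higher. RNR2 had -0.77 and -0.50 at 30 min and -1.17 and -1.68 at 75 min in MMS relative to HU (-1.03 ± 0.08, adjusted p = 3.0e-05), RNR4 differed by -0.67 ± 0.08 and HUG1 by -0.77 ± 0.10. General stress genes were lower in MMS in 15 of 28 cases and higher in 2, with DDR2 at -0.91 ± 0.06. Genes of the CLB2 cluster were higher in MMS than in HU in 15 of 19 cases and lower in 1, with SWI5 at 0.65 ± 0.09, and histone genes were lower in 6 of 10.

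The effect of MMS in rad53Δ cells was set against its effect in wild-type cells at the same times, to ask where the response depends on the kinase. The strains were hybridised on separate arrays, so strain and array set cannot be told apart in any level and only the treatment effects were compared. As a mean of 30 and 75 min 460 features differed (7.36%), 245 with a higher value in rad53Δ (3.92%) and 215 with a lower value (3.44%), and 45 or 88 did without rad53Δ replicate 1 or 2, of which 24.4% and 35.2% had a higher value in rad53Δ, against 53.3% with both. Over all features the effects in the strains correlated at r = 0.73 without shared samples. Their SDs in the 2 replicates were 0.22 and 0.22 in rad53Δ cells at 30 min, against 0.41 and 0.51 in wild-type cells. At 75 min they were 0.45 and 0.47 in rad53Δ cells, against 0.74 and 0.78 in wild-type cells. A smaller rise or fall in rad53Δ is thus not particular to the gene groups below. Wild-type replicates differed from each other at 30 min, with CLB2 cluster medians of -0.28 in replicate 1 and -1.53 in replicate 2, MBF medians of 0.38 and 1.54, and stress medians of -0.05 and 0.85, and at 30 min alone 19 features differed between strains (0.304%), 1 higher (0.016%) and 18 lower in rad53Δ (0.288%). At 75 min alone 608 did (9.73%), 345 higher (5.52%) and 263 lower (4.21%).

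Of the gene groups, the Crt1 group, which also holds reductase genes such as RNR1 and SML1, had the largest median difference, -1.72. At 75 min HUG1 had -0.80 and -0.95 in rad53Δ cells, against 3.78 and 4.08 in wild-type cells, a difference of -4.80 ± 0.93 (adjusted p = 0.0011). RNR2 had -0.36 and -0.76 in rad53Δ cells, against 2.56 and 2.84 in wild-type cells. RNR3 had -0.01 in both rad53Δ replicates, against 2.95 and 2.82 in wild-type cells, and RNR4 had -0.69 and -0.57 in rad53Δ cells, against 2.69 and 2.90 in wild-type cells. At 75 min the differences were -3.26 ± 0.47 for RNR2, -2.89 ± 0.43 for RNR3 and -3.42 ± 0.28 for RNR4. At 30 min the wild-type values were near 0 for RNR2 (-0.30 and 0.00) and RNR4 (-0.19 and 0.20), so the differences in the mean of both times were smaller, at -1.67, -1.82 and -1.77 for RNR2, RNR3 and RNR4. For RNR1 the mean difference was -4.09 ± 1.09 (adjusted p = 0.021), with wild-type replicates at 5.28 and 0.78 at 75 min, and it did not pass at 75 min alone (adjusted p = 0.17) or in the mean without either rad53Δ replicate. In all, 5 of the 8 genes of the group had a lower effect in rad53Δ and 0 a higher one, and 4 or 2 of 8 did so without 1 wild-type or 1 rad53Δ replicate. With arrays scaled to equal spread 3 of the 8 had a lower effect in rad53Δ. PLM2, DUN1 and MAG1 differed as well, by -1.67, -1.31 and -0.92. In their list of 17 measured repair and checkpoint genes, 5 had a lower effect in rad53Δ, 0 a higher one and 12 did not pass. With arrays scaled to equal spread 4 had a lower effect. MAG1 had 0.43 and 0.65 at 75 min in rad53Δ cells, against 1.90 and 2.04 in wild-type cells. NRM1 had 0.02 and 0.07 in rad53Δ cells, against 1.39 and 1.38 in wild-type cells at 75 min (difference -1.34 ± 0.37, adjusted p = 0.02), a difference that did not pass in the mean (-0.76, adjusted p = 0.083), nor at 75 min with scaled arrays or without any 1 replicate.

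**Figure D4:**
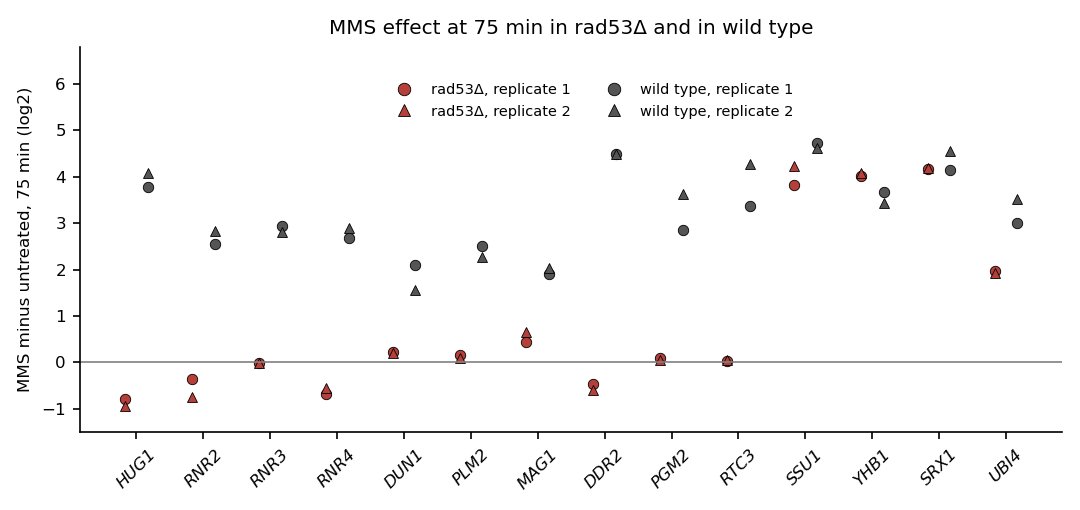
MMS minus untreated (log2) at 75 min in rad53Δ (red, left of each pair) and wild type (grey, right), 1 point for each replicate, for checkpoint, stress and marker genes. From HUG1 to RTC3 the rad53Δ points lie at or below 0.65 and the wild-type points above 1.5, while SSU1, YHB1 and SRX1 lie above 3.4 in both strains.

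General stress genes differed in the same direction, with a lower effect in rad53Δ for 18 of 28 and a higher one for 0, and a median difference of -0.81. With arrays scaled to equal spread 8 of the 28 had a lower effect. DDR2 had -0.46 and -0.59 at 75 min in rad53Δ cells, against 4.49 and 4.50 in wild-type cells. PGM2 had 0.09 and 0.04 in rad53Δ cells, against 2.86 and 3.62 in wild-type cells, and RTC3 had 0.03 and 0.04, against 3.37 and 4.28. YGP1 differed by -1.93 in the mean, a call that ended without either rad53Δ replicate. The count was 7 of 28 without wild-type replicate 2, 23 without wild-type replicate 1 and 5 without either rad53Δ replicate. In amino acid synthesis 6 of 45 differed, all lower in rad53Δ, where 3.44% of all features were lower. With arrays scaled to equal spread 5 of the 45 were lower. ARG3 (YJL088W) had 0.24 and 0.25 at 30 min and 0.19 and 0.20 at 75 min in rad53Δ cells, against 1.76 and 1.93 at 30 min and 2.67 and 2.12 at 75 min in wild-type cells. ARG1 and ARG4 differed by -1.89 and -1.19.

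Among the leading rises, some genes had effects of close size in both strains and others a smaller effect in rad53Δ. YHB1 differed by 0.12 (adjusted p = 0.89) and SRX1 by -0.35 ± 0.40 (adjusted p = 0.72), and DDI2 and DDI3 by -0.18 and -0.06, but a p that misses the threshold does not show that the strains respond alike. SSU1 had a lower effect in rad53Δ by 0.87 on the log2 scale, with 3.82 and 4.23 at 75 min in rad53Δ cells, against 4.73 and 4.63 in wild-type cells, though at 75 min alone the difference of -0.65 did not pass (adjusted p = 0.15). FLR1, GTT2, ATR1 and YNL134C differed by -1.33, -1.01, -0.96 and -1.69, and UBI4 by -0.90. Of 30 redox genes 10 and of 32 proteasome genes 8 had a lower effect in rad53Δ and 0 a higher one, while 1 and 0 did with arrays scaled to equal spread, and 2 or 4 redox and 0 proteasome genes did without a rad53Δ replicate. YNR064C ran the other way, with 3.06 and 2.90 at 75 min in rad53Δ cells, against 1.26 and 1.86 in wild-type cells (mean difference 0.71, adjusted p = 0.01).

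**Figure D5:**
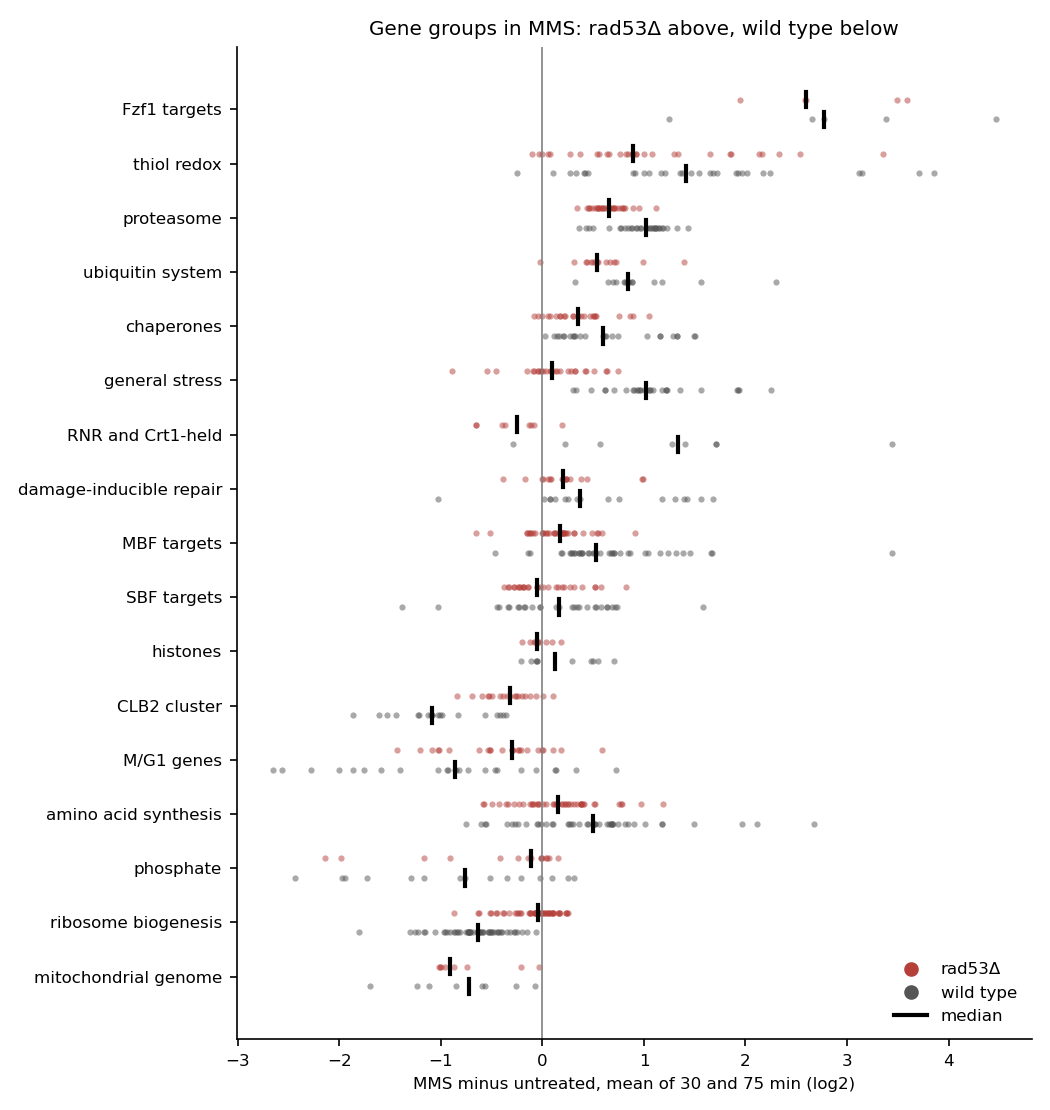
MMS minus untreated (log2, mean of 30 and 75 min) for each member of 17 gene groups, rad53Δ (red) above wild type (grey), with the group median as a bar. The Crt1 group (labelled RNR and Crt1-held) has a median of -0.25 in rad53Δ against 1.34 in wild type, and the Fzf1 group 2.59 in rad53Δ against 2.77 in wild type.

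Falls were smaller in rad53Δ for ribosome biogenesis and M/G1 genes, where the spread of effects over all features was smaller as well. Of 55 biogenesis factors 33 had a higher value in rad53Δ and 0 a lower one, with medians at 75 min of -0.20 and -0.17 in the rad53Δ replicates, against -1.11 and -1.55 in the wild-type replicates. Without 1 library set this count was 36 or 18 (wild-type replicate 1 or 2) and 1 or 5 (rad53Δ replicate 1 or 2), and with scaled arrays 9. Of 24 M/G1 genes 9 had a higher value in rad53Δ (2 with scaled arrays, 3 and 1 without rad53Δ replicates 1 and 2), and EGT2 had -2.92 and -2.49 at 75 min in rad53Δ cells, against -4.91 and -5.95 in wild-type cells. In the CLB2 cluster 5 of 19 did, a count of 15 without wild-type replicate 1 and 0 without either rad53Δ replicate. With scaled arrays 1 of the 19 cluster genes had a higher value in rad53Δ. PHO5 (YBR093C), an acid phosphatase gene, had -0.80 and -0.62 at 75 min in rad53Δ cells, against -3.78 and -2.89 in wild-type cells. The cell wall gene NCW2 (YLR194C) had 0.70 and 0.38 at 75 min in rad53Δ cells, against -1.36 and -1.89 in wild-type cells, so its direction differed.

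MRH1 and NCE102, both plasma membrane protein genes, had lower values in rad53Δ cells than in wild-type cells at 75 min. MRH1 had -4.23 and -4.35 at 75 min in rad53Δ cells, against -1.47 and -2.12 in wild-type cells (difference -2.49 ± 0.54, adjusted p = 0.0031), a call that ended without either rad53Δ replicate. NCE102 had -1.76 and -2.03 in rad53Δ cells, against 0.29 and 0.94 in wild-type cells (difference -2.51 ± 0.45, adjusted p = 0.00058).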

How the data were processed

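The deposited values are signed ratios of Cy5 over Cy3 RNA, made by the authors with limma per the submitters' processing notes (no version given) and taken as log2. How background and dye bias were treated is not given here. Array titles name the Cy5 and then the Cy3 extract. On 1 replicate 2 array title and time entry say 30 min and source names 75 min. The 30 min of the title was used. The loop sum had an SD of 0.294 with this array at 30 min (0.391 if arrays were independent). In the 75 min loop it was 0.500 with this array (0.710 if independent) and 0.323 with the loop's own array (0.823). The array's ratios had an SD of 0.231. The other 30 min arrays of replicate 2 had 0.219 and 0.227, and its 75 min arrays 0.421, 0.477 and 0.523. These values lie nearer to the 30 min of the title, but the conflict between the labels remains. Of 6266 probes 5609 had 1 symbol and 657 none, and 5608 matched assembly R64. Probes of a gene were averaged (16 genes), giving 6249 features.

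Replicate 1 was hybridised in loops over time through its 0 min extract and replicate 2 in triangles of MMS, HU and untreated RNA within a time. Extract levels were found by least squares with a dye term per feature. They share a scale only within a block of replicate and time, so the 12 extracts of 30 and 75 min (6 groups, 4 blocks) were fitted in limma 3.58.1 (R 4.3.3) with block terms, leaving 4 residual degrees of freedom (prior 5.55). The pairing thus comes from the hybridisations. Levels estimated in 1 loop are not independent and each time counts as a sample, so SEs can be too small. Strain differences come from a fit of 54 extracts of all strains. P-values of the moderated tests were Benjamini-Hochberg adjusted over the 6249 features, threshold 0.05, and no gene set was tested. The code was tested on simulated data.

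The genes, the lists of related genes (20, from textbook knowledge, and ribosomal proteins by symbol) and the comparisons were chosen with earlier results of these data known. Single-time strain tests were added later. Named genes are the 12 largest rises and falls of the mean with 1 sign in all 4 values, the 4 largest of each sign for time and for MMS minus HU and 6 for strain, the 4 largest of each list, and a set list of checkpoint, cycle and stress genes. Those for time and for MMS minus HU also had 1 sign in all values. Those for strain had rad53Δ values that all lay to the same side of the wild-type values at both times. Members named as exceptions were chosen after their values were seen. Alternatives were another scaling, spread, block, dye term, path, feature set and eBayes, and leaving out a replicate or the array with disputed time. Some list members are not reported here. Figures were made in matplotlib 3.10.9.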

Additional observations from a re-analysis of the deposited data

Results flagged for a closer look

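For the genes below the effect of MMS differed between strains or between times by limma's test of the difference itself. Genes that differed between strains were picked only where rad53Δ and wild-type values did not overlap at either time. The mean effect over 30 and 75 min was higher in rad53Δ than in wild type by 1.60 for SWI5 (adjusted p = 0.021), 1.55 for PHO5 (adjusted p = 0.00016), 1.52 for YNL058C (adjusted p = 0.0027), 1.51 for NCW2 (adjusted p = 8.9e-06), 1.42 for PRM7 (adjusted p = 0.032) and 1.24 for AIM44 (adjusted p = 5.9e-06). SWI5 had -1.01 and -3.45 in the wild-type replicates at 30 min, so its size rests on wild-type replicate 2. AIM44, of the bud neck, had -1.31 and -1.49 at 75 min in rad53Δ cells, against -3.56 and -3.83 in wild-type cells. It was lower in rad53Δ than in wild type by a difference of -4.09 for RNR1 (adjusted p = 0.021), -2.79 for DDR2 (adjusted p = 4.1e-07), -2.22 for RTC3 (adjusted p = 2.8e-06), -1.95 for PGM2 (adjusted p = 2.4e-06), -1.93 for YGP1 (adjusted p = 0.0014) and -1.90 for ARG3 (adjusted p = 2.4e-06).

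Within rad53Δ cells the effect at 75 min minus that at 30 min was 2.41 for FLR1 (adjusted p = 0.0067), 2.29 for DDI2 and for its near-identical copy DDI3 (adjusted p = 0.0079 and 0.0033) and 2.14 for AAD6 (adjusted p = 0.014). It was -4.70 for MRH1 (adjusted p = 1.9e-08), -3.25 for PHO3 (adjusted p = 1.5e-05), -2.77 for PIR1 (adjusted p = 6.6e-06) and -2.70 for PHO12 (adjusted p = 5.4e-05). No group had the 4 samples that a search for outlying samples needs.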

How the results depend on the processing

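None of the 105 named genes that passed in the mean of 30 and 75 min changed sign under any alternative run, but some list medians near 0 did: the pheromone median of the mean was 0.05 with scaled arrays, against -0.08 as reported, the histone median of the mean 0.11 without replicate 1, against -0.05, and the CLB2 cluster's median at 30 min -0.01 without replicate 2, against 0.03. Of these genes 101 passed with arrays scaled to equal spread, 100 with arrays on the shortest path only, 104 with a dye term for each slide and 104 with robust eBayes. With the spread from extracts of all strains 74 passed, without replicate 1 43 and without replicate 2 41, where the lone replicate is assumed to vary like the other strains. Features past the threshold moved more. For the mean of both times (2396) they were 836 with the all-strain spread and 168 to 203 without 1 replicate, and 2330 with 1 value per replicate. At 30 min (220) they were 440 with scaled arrays, of which 51.1% were higher in MMS, against 64.1% as reported, 25 with the all-strain spread, 415 with MMS and untreated extracts only, 796 with no replicate block, 56 on the shortest path and 4 to 6 without 1 replicate. At 75 min (2645) they were 1751 with scaled arrays, 1078 with the all-strain spread and 195 to 280 without 1 replicate. The difference between times (814) gave 336 with scaled arrays, 79 with the all-strain spread, 2064 with no replicate block, 335 on the shortest path and 8 to 9 without 1 replicate. MMS minus HU (2779) gave 1221 with the all-strain spread and 244 to 319 without 1 replicate. The difference between strains (460) gave 145 with scaled arrays, 982 with no replicate block, 45 without rad53 replicate 1, 88 without rad53 replicate 2, and 548 to 631 without 1 wild-type replicate. The cause of these moves was not tested. Leaving out a replicate changed both the number of samples and the spread, which was then taken from the extracts of all strains. Without the replicate block the mean gave 2857, the 75 min comparison 3384 and MMS minus HU 3256, and it ended no call among the 105 genes. The split of higher calls for the difference between times was 46.4% with scaled arrays, against 55.8% as reported. Leaving out a replicate also moved the split of calls, to 68.7% to 69.3% higher at 75 min (54.5% as reported), 25% to 44.4% for the difference between times, 66.1% to 72.1% for MMS minus HU (50.2%) and 24.4% to 35.2% for the strain difference without a rad53 replicate (53.3%). Signal over background is not known.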
